A study of Arabidopsis thaliana with 16 samples.

Results

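The ABF and ABI5 bZIP factors are 8 related Arabidopsis thaliana genes of the group A basic leucine zipper class. They are ABF1 (AT1G49720), ABF2 (AT1G45249), ABF3 (AT4G34000), ABF4 (AT3G19290), ABI5 (AT2G36270), AREB3 (AT3G56850), EEL (AT2G41070) and DPBF2 (AT3G44460). The genes were picked by locus name and not by their counts, but with earlier results of these data known. All 8 were found among the 32833 loci of each count table. The gene lists used for context below were also chosen with those results known. Their RNA was followed in 16 poly(A) RNA-seq libraries from whole seedlings, 2 biological replicates in each of 8 groups. The wild type Col-0 and the mutant seu-6, which carries a lesion in the transcriptional co-regulator gene SEUSS (SEU), were compared in a pair of hyperosmotic experiments. In the NaCl experiment, seedlings aged 14 days stood for 15 min in liquid 1/2 MS medium (mock) or in that medium with 300 mM NaCl. In the sorbitol experiment, seedlings aged 10 days stood for 6 h in liquid 1/2 MS medium or in that medium with 250 mM sorbitol. Age, time, agent and dose all differ between the experiments, so their responses are given side by side and are not compared. Only 1 mutant allele was used, and the sources used here give neither its lesion nor the number of seedlings in a replicate.

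Group A bZIP proteins bind as dimers to the ABA-responsive element (ABRE), a promoter sequence built on the core letters ACGTG. When the hormone abscisic acid (ABA) is bound by its receptors, clade A PP2C phosphatases are inhibited and SnRK2 kinases are released, and these kinases phosphorylate and activate the bZIP factors. ABF2, ABF3 and ABF4 act mainly in vegetative tissues under water deficit, while ABI5 is best known for arresting germination and early seedling growth, and EEL, AREB3 and DPBF2 have been studied mostly in developing seeds.

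Each library held between 39756463 and 42676953 reads counted in genes. SEU itself lay between 38.6 and 59.0 CPM (the count of a gene scaled to the library total) in the 8 Col-0 libraries and between 0.409 and 1.07 CPM in the 8 seu-6 libraries, so each library matched its genotype label. CPM leave out the TMM factors by which edgeR scales libraries in the tests, so a fitted change can differ from a ratio of CPM. Replicates differed by more than counting noise in every group, with a standard deviation of 0.0907 to 0.108 on the log2 scale per library. Root and leaf mesophyll marker genes were detected in every group. The summed level of 8 root markers was higher in seu-6 in each medium, for example 4301 to 4595 CPM against 2535 to 2658 CPM in the 6 h mock, but nearly all of that sum is PYK10, which averaged 4341 and 2475 CPM there. By single markers in edgeR, seu-6 was higher in 1 and lower in 3 of the 8 in the 15 min mock, 1 and 5 with NaCl, 1 and 2 in the 6 h mock, and 2 and 1 under sorbitol. Of 6 leaf mesophyll markers, seu-6 was lower in 6 in the 6 h mock, and lower in 4 and higher in 1 under sorbitol. It was higher in 3 in the 15 min mock and in 4 with NaCl. Over all genes tested, seu-6 was higher in 14% and lower in 12.9% in the 15 min mock, and in 13.6% and 16.1% with NaCl. The shares were 16% and 11.8% in the 6 h mock and 17.5% and 17.4% under sorbitol. Sorbitol raised 5 of the 6 leaf markers and lowered 1 in Col-0, beside 31.3% and 31.2% of all genes. In seu-6 it raised 6, beside 28.9%. NaCl lowered 5 in Col-0 and 4 in seu-6, beside 17.6% and 17.9% of all genes. NaCl raised 3 of 4 guard cell markers in each genotype, beside 15.8% of all genes in Col-0 and 12% in seu-6. The part of these shifts in the results was not tested. Embryo and seed markers set both seu-6 libraries of the 6 h mock apart. Their 9 markers summed to 145.8 and 146.1 CPM there, with 1 of the 9 at 0, against at most 1.73 CPM in any other library. Comparisons that use these libraries are given with that fact in view, and its part in them was not tested. In RNA from whole seedlings, fewer cells of a type and less RNA per cell cannot be told apart.

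The promoters of the genes whose RNA moved most are shown here because several of them hold the element that the factors themselves bind. The 250 bases before the annotated start of ABF3, ABF2, ABI5 and ABF1 follow, from the RefSeq TAIR10.1 assembly, written 5′ to 3′ on the strand of the gene. Capitals mark the ABRE core ACGTG or its reverse complement CACGT, and CACGTG (the G-box) where both overlap. ABF3 is at chr4:16295084-16295333, plus strand. ABF2 is at chr1:17167925-17168174, minus strand. ABI5 is at chr2:15207637-15207886, minus strand. ABF1 is at chr1:18399753-18400002, plus strand.
ABF3: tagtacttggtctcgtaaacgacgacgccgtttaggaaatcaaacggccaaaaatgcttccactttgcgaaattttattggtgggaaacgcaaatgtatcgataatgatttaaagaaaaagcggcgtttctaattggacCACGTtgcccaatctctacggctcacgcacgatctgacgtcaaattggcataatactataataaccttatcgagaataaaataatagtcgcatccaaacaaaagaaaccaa
ABF2: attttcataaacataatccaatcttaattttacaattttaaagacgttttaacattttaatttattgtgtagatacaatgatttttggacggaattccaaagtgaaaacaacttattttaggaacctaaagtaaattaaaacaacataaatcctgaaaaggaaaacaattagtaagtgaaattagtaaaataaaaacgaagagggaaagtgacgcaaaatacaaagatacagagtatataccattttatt
ABI5: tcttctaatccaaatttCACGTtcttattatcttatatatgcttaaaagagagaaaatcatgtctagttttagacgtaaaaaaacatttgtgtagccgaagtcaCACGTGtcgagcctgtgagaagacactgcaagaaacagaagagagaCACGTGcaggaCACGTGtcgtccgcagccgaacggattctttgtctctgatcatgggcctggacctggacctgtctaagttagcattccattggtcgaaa
ABF1: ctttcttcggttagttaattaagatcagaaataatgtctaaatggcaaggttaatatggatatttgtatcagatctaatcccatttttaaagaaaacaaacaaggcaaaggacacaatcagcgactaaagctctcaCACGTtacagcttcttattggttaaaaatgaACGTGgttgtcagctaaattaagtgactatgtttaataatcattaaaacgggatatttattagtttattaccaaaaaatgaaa

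Motifs were counted on both strands in a window from 250 bases before to 50 bases after the start of each gene. The ABI5 window held 3 G-boxes and 7 matches to the ABRE core, of which 6 are the 3 G-boxes read on both strands. ABF1 and ABF4 held 2 ABRE cores each, and ABF3 and DPBF2 held 1 each. No ABRE core lay in the windows of ABF2, AREB3 and EEL. ABF4 also held 1 match to CCGAC, the core of the drought-responsive element (DRE) that DREB factors bind. Over 27437 windows of the same length at protein-coding genes, 26.7% held at least 1 ABRE core, 7.7% held a G-box and 15.1% held a DRE core. A match is a run of letters and not a measured binding site.

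**Figure D1:**
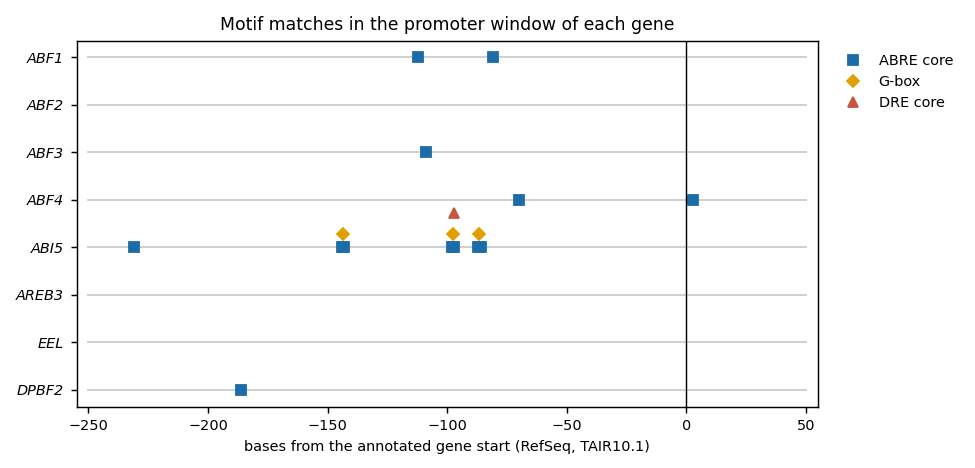
Motif matches in the promoter windows of the 8 genes. The horizontal axis gives distance in bases from the annotated gene start, and each mark is 1 match to the ABRE core, the G-box or the DRE core. ABF1, ABF3, ABF4, ABI5 and DPBF2 hold an ABRE core, and ABI5 alone holds G-boxes.

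Untreated seedlings held a wide range of levels across the 8 genes. To set genes side by side, CPM were divided by the exon length of each gene in kilobases. In the Col-0 15 min mock, ABF3 averaged 23.0 CPM per kb and ABF1 averaged 21.9 CPM per kb. ABF4, AREB3 and ABF2 followed at 9.87, 9.58 and 9.18 CPM per kb, and the replicates of neighbours in that trio overlapped. EEL stood at 3.05, ABI5 at 0.933 and DPBF2 at 0.16 CPM per kb. In the Col-0 6 h mock, ABF1 led with 27.1 CPM per kb and ABF3 came next with 19.97 CPM per kb, without overlap, while AREB3 at 12.8 and ABF4 at 12.1 CPM per kb overlapped. The seu-6 6 h mock had ABF1 at 39.0 CPM per kb, well clear of ABF4 at 13.2, ABF3 at 12.8 and AREB3 at 11.9 CPM per kb, whose neighbours overlapped. ABI5 and DPBF2 were the lowest members in all 4 mock groups. Some of these orders depended on the length used. Divided by the exon bases that no other gene shares, the Col-0 15 min mock had ABF1 at 24.55 ± 1.036 and ABF3 at 23.26 ± 0.1194 CPM per kb (SD, n = 2), the reverse of the order above. On that scale ABF4 stood at 13.93 ± 1.14 CPM per kb there, clear of AREB3 at 10.18 ± 0.2518 CPM per kb. It also led AREB3 in the Col-0 6 h mock (17.13 ± 2.005 against 13.58 ± 0.6829 CPM per kb), and in the seu-6 6 h mock it led ABF3 (18.61 ± 0.375 against 12.88 ± 1.343 CPM per kb).

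**Figure D2:**
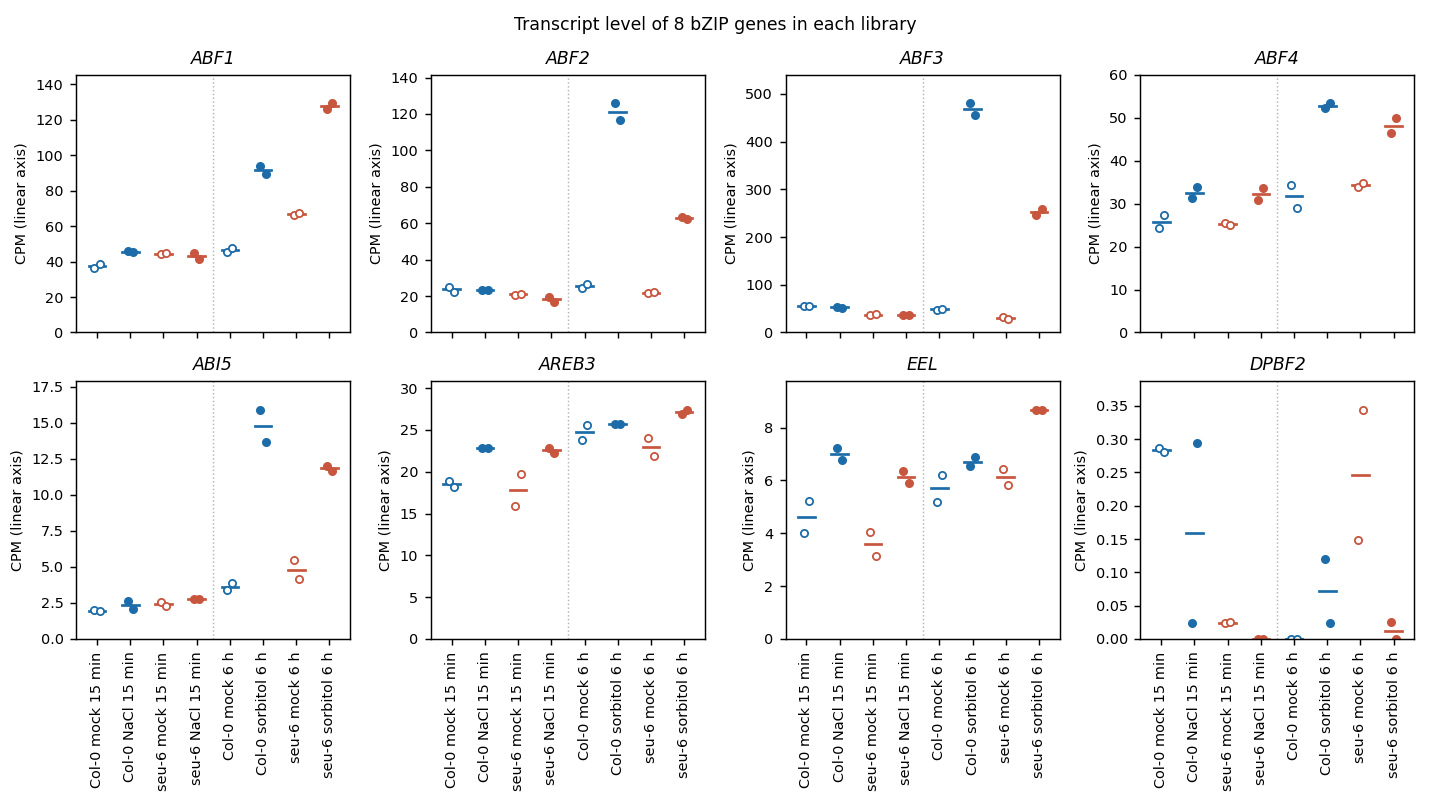
Transcript level of each gene in each library. The vertical axes are linear CPM from 0, each point is 1 library, bars are means of 2 libraries, blue is Col-0, red is seu-6, and open points are mock. ABF2, ABF3 and ABI5 stand far above their mocks under sorbitol, with ABF3 at 457 and 481 CPM in Col-0 against 246 and 259 CPM in seu-6.

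All 7 members tested were called higher after 6 h of sorbitol, in both genotypes, in the main edgeR fit. In Col-0 the AREB3 and EEL calls were lost in DESeq2 and in edgeR with all 16 libraries in 1 fit. The low-count filter removed the eighth, DPBF2, from the main fit of these libraries. Among the 21633 genes tested, 31.3% were called higher and 31.2% lower under sorbitol in Col-0, and 28.9% higher and 29% lower in seu-6, at an adjusted p under 0.05 in edgeR's quasi-likelihood test. The median log2 fold change of the 7 members was 1.10 in Col-0 and 1.02 in seu-6, beside -0.00452 and -0.00444 over all genes tested.

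ABF3, which drives drought-protective gene expression and stomatal closure when overproduced, had the strongest response of the 7. In Col-0 it measured 47.9 and 49.7 CPM in the mock and 481 and 457 CPM under sorbitol. In seu-6 it measured 33.5 and 28.9 CPM in the mock and 246 and 259 CPM under sorbitol. Treated and mock libraries lay far apart in both genotypes, and the Col-0 libraries lay above the seu-6 libraries in both media. The rise was 10.5-fold in Col-0 (log2 3.39 ± 0.044 SE, edgeR adjusted p = 1.1e-46, n = 2 libraries a group) and 8.62-fold in seu-6 (log2 3.11 ± 0.046 SE, adjusted p = 3.7e-44).

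ABF2, also called AREB1, is a close relative of ABF3 that is required with ABF3 and ABF4 for full ABA-dependent gene expression under water stress. In Col-0 it measured 24.5 and 26.8 CPM in the mock and 126 and 116 CPM under sorbitol. In seu-6 it measured 21.5 and 22.0 CPM in the mock and 63.5 and 62.3 CPM under sorbitol. The mock libraries of the genotypes lay close together, and the sorbitol libraries were far apart. The rise was 5.16-fold in Col-0 (log2 2.37 ± 0.056 SE, edgeR adjusted p = 3.4e-43) and 3.08-fold in seu-6 (log2 1.62 ± 0.059 SE, adjusted p = 2.3e-33).

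ABI5 stood low in the mocks and rose several-fold. In Col-0 it measured 3.38 and 3.88 CPM in the mock and 15.9 and 13.6 CPM under sorbitol. In seu-6 it measured 5.50 and 4.13 CPM in the mock and 11.97 and 11.7 CPM under sorbitol. The genotypes traded places, with seu-6 above Col-0 in the mock and below it under sorbitol. Both of these genotype differences were called in edgeR but lost in DESeq2 (DESeq2 adjusted p = 0.088 and 0.097). The rise was 4.44-fold in Col-0 (log2 2.15 ± 0.142 SE, edgeR adjusted p = 9.2e-21) and 2.61-fold in seu-6 (log2 1.39 ± 0.139 SE, adjusted p = 2.6e-13).

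ABF1, a less studied relative expressed at a comparatively high level here, differed from ABF2 and ABF3 in its order of genotypes. In Col-0 it measured 45.2 and 47.9 CPM in the mock and 93.6 and 89.3 CPM under sorbitol. In seu-6 it measured 66.4 and 67.6 CPM in the mock and 126 and 129 CPM under sorbitol. Here seu-6 was the higher genotype in both media. The rise was 2.15-fold in Col-0 (log2 1.10 ± 0.048 SE, edgeR adjusted p = 2.3e-29) and 2.03-fold in seu-6 (log2 1.02 ± 0.046 SE, adjusted p = 2.1e-28).

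ABF4, also called AREB2, rose less. In Col-0 it measured 34.3 and 29.1 CPM in the mock and 52.3 and 53.4 CPM under sorbitol, and in seu-6 it measured 33.9 and 34.9 CPM in the mock and 46.3 and 49.9 CPM under sorbitol. Mock and sorbitol libraries did not overlap in either genotype. Its log2 change was 0.86 ± 0.064 SE in Col-0 (edgeR adjusted p = 2.7e-18) and 0.57 ± 0.064 SE in seu-6 (adjusted p = 1.4e-11). Of its 2609 exon bases, 754 are shared with an antisense non-coding locus, AT3G03815, which itself held 1 to 21 counts a library. The strand setting of the counting is not given in the sources used here, so reads of the pair cannot be told apart.

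AREB3 and EEL changed least. AREB3 measured 23.9 and 25.6 CPM in the Col-0 mock, 25.8 and 25.7 CPM in Col-0 under sorbitol, 24.1 and 21.9 CPM in the seu-6 mock and 26.9 and 27.4 CPM in seu-6 under sorbitol. EEL measured 5.20 and 6.22 CPM in the Col-0 mock, 6.54 and 6.89 CPM in Col-0 under sorbitol, 6.42 and 5.83 CPM in the seu-6 mock and 8.68 and 8.67 CPM in seu-6 under sorbitol. In Col-0 the gap between groups was narrow for both genes. The log2 change of AREB3 was 0.19 ± 0.076 SE in Col-0 (edgeR adjusted p = 0.03) and 0.33 ± 0.077 SE in seu-6 (adjusted p = 1.6e-04). Much of the fitted AREB3 rise in Col-0 comes from the TMM factors, 1.05 in each mock and 0.9575 and 0.9562 under sorbitol. Its mean was 24.7 CPM in that mock and 25.7 CPM under sorbitol. For EEL it was 0.36 ± 0.146 SE in Col-0 (edgeR adjusted p = 0.028) and 0.59 ± 0.144 SE in seu-6 (adjusted p = 3.2e-04). Both Col-0 calls were lost in DESeq2, at an adjusted p of 0.066 for AREB3 and 0.062 for EEL. In edgeR the AREB3 call in Col-0 was lost without the first mock (0.23) or either sorbitol library (0.091 each), and the EEL call without the first mock (0.25) or the second sorbitol library (0.12).

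**Figure D3:**
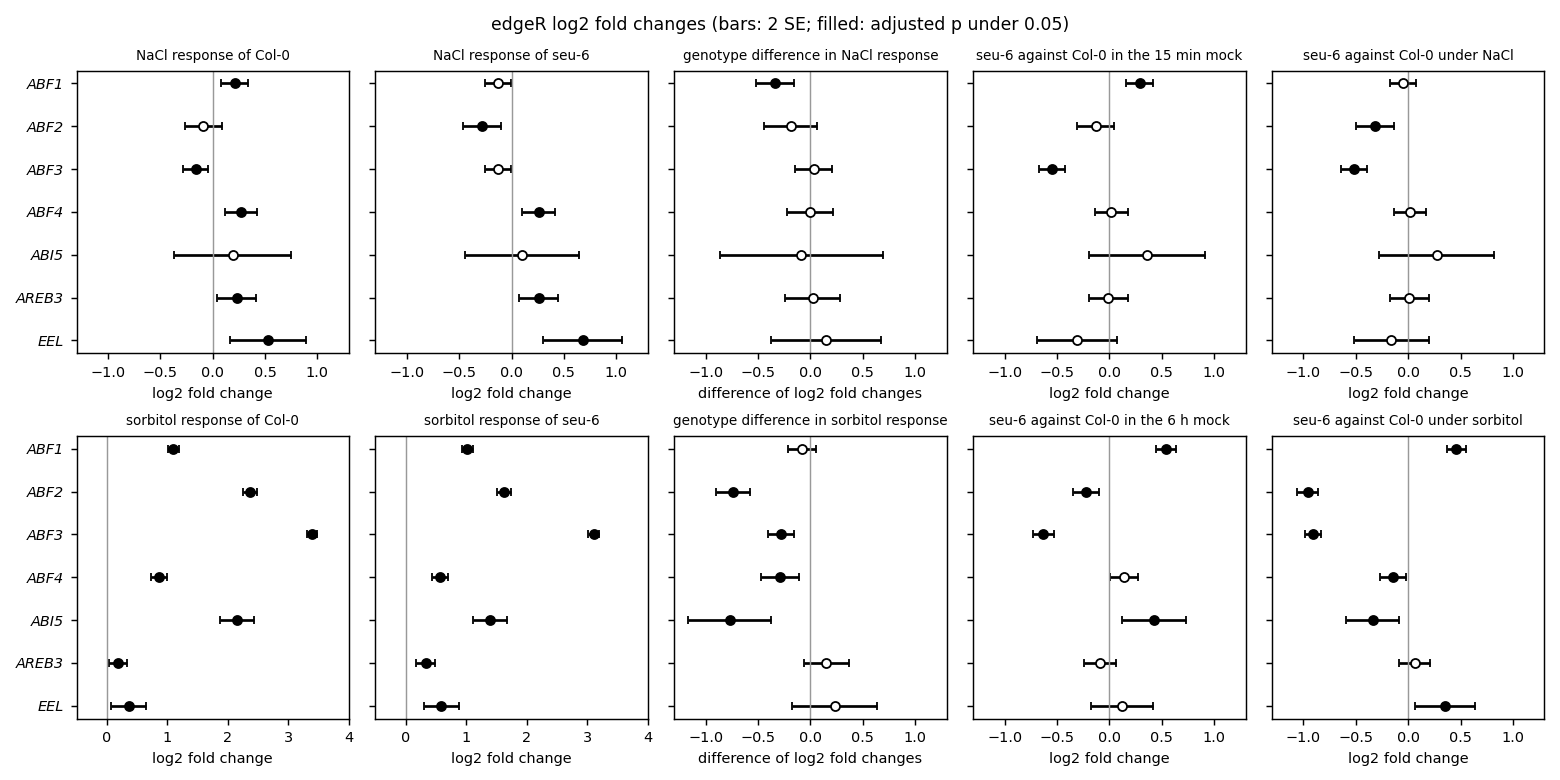
Fitted log2 changes of 7 genes in 10 comparisons. Points are edgeR estimates, bars span 2 standard errors on either side, and filled points have an adjusted p under 0.05. The panels of the sorbitol response use a wider axis. DPBF2 is left out because the low-count filter removed it from the sorbitol fit. All 7 genes lie right of 0 in both sorbitol responses, and ABF2, ABF3, ABF4 and ABI5 lie left of 0 in the genotype difference.

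A direct test of the genotype difference in the sorbitol response found 4 of the 7 members with a smaller rise in seu-6 and 0 with a larger one. Over all 21633 genes, 7.38% had a lower and 5.62% a higher response in seu-6. The difference was -0.74 ± 0.081 SE (log2) for ABF2 (edgeR adjusted p = 1.1e-10), -0.77 ± 0.199 SE for ABI5 (adjusted p = 0.0046), -0.29 ± 0.091 SE for ABF4 (adjusted p = 0.022) and -0.28 ± 0.062 SE for ABF3 (adjusted p = 8.7e-04). That of ABF2 kept an adjusted p under 0.05 when any 1 of the 8 libraries was left out, from 5.5e-12 to 7.7e-08, and in every other fit tried. The ABF3 call was lost in DESeq2 (adjusted p = 0.089) and in edgeR without the first seu-6 mock library (0.085). The ABF4 call was lost in DESeq2 (0.098) and in edgeR without any of 4 libraries, namely the second Col-0 mock (0.28), the second seu-6 mock (0.085), the second Col-0 sorbitol (0.088) and the first seu-6 sorbitol library (0.13). The ABI5 difference was -0.55 (edgeR adjusted p = 0.11) without the first seu-6 mock library and -0.64 (0.051) without the first Col-0 sorbitol library. For ABF1 the difference was -0.08 ± 0.066 SE (adjusted p = 0.5), for AREB3 0.15 ± 0.108 SE (0.44) and for EEL 0.23 ± 0.205 SE (0.55), all in edgeR.

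Levels under sorbitol also differed by genotype. There, 4 of the 7 members were lower in seu-6 and 2 were higher, beside 17.4% and 17.5% of all genes tested. ABF2 was 1.95-fold lower (log2 -0.96 ± 0.051 SE, edgeR adjusted p = 3.2e-24) and ABF3 was 1.88-fold lower (log2 -0.91 ± 0.038 SE, adjusted p = 9.4e-25). ABF1 was 1.38-fold higher (log2 0.46 ± 0.045 SE, edgeR adjusted p = 3.2e-13). These 3 calls held without any single library and in every other fit tried. The other 3 were near the threshold in edgeR, with ABF4 at -0.15 ± 0.062 SE (adjusted p = 0.049), ABI5 at -0.34 ± 0.127 SE (0.031) and EEL at 0.35 ± 0.142 SE (0.048). All 3 were lost in DESeq2, at adjusted p values of 0.14, 0.097 and 0.12. In edgeR, EEL was lost without any 1 of the 4 libraries (0.11 to 0.2), ABI5 without the first Col-0 (0.31) or either seu-6 sorbitol library (0.089 and 0.14), and ABF4 without either Col-0 (0.089 and 0.17) or the first seu-6 sorbitol library (0.3).

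The sum of the 8 genes, per kilobase of exon, changed in size and in make-up. It averaged 87.4 ± 2.12 CPM per kb (SD, n = 2) in the Col-0 6 h mock and 337 ± 11.6 CPM per kb under sorbitol. In seu-6 it averaged 91.7 ± 1.91 CPM per kb in the mock and 246 ± 5.85 CPM per kb under sorbitol. The genotypes started close together, and Col-0 ended higher. ABF3 made up 22.9% ± 0.0262 of the sum in the Col-0 mock and 56.9% ± 0.0871 under sorbitol, against 13.9% ± 1.16 and 42.0% ± 0.546 in seu-6. The share of ABF1 went from 31.0% ± 0.526 to 15.8% ± 0.0217 in Col-0 and from 42.5% ± 1.41 to 30.2% ± 0.169 in seu-6. ABF2 held 13.9% ± 0.292 of the sum under sorbitol in Col-0 and 9.92% ± 0.376 in seu-6. A fall in a share here accompanied a rise in level, since ABF1 itself rose in both genotypes.

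**Figure D4:**
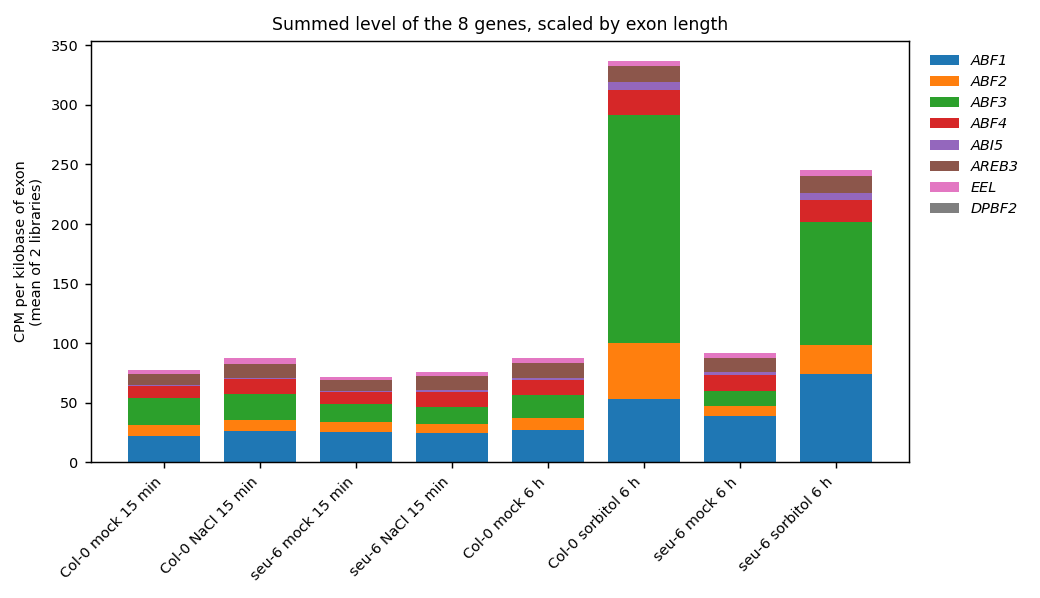
Summed level of the 8 genes in each group. The height of a bar is the mean of 2 libraries in CPM per kilobase of exon, and colours divide it by gene. The Col-0 sorbitol bar reaches 337 and the seu-6 sorbitol bar 246 CPM per kb, and ABF3 is the largest segment of both.

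NaCl for 15 min left the members within 1.5-fold of the mock in both genotypes, other than EEL in seu-6 (1.6-fold higher) and the barely detected DPBF2. In Col-0, 4 of the 8 members were called higher and 1 lower, beside 15.8% and 17.6% of the 22066 genes tested. In seu-6, 3 were called higher and 1 lower, beside 12% and 17.9%. These counts fell when any 1 library was left out. Each such fit has 1 library fewer, and the cause of the fall was not tested. In Col-0, the 5 calls fell to 0 without the first mock library, 3 without the second mock library, 2 without the first NaCl library and 1 without the second NaCl library. In seu-6, the 4 calls fell to 2 without the first mock library and to 1 without the second mock or the second NaCl library.

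EEL, a factor that competes with ABI5 at seed promoters, had the biggest fitted rise among the members called. It measured 4.001 and 5.23 CPM in the Col-0 mock and 7.22 and 6.79 CPM with NaCl, and 4.04 and 3.16 CPM in the seu-6 mock and 6.34 and 5.89 CPM with NaCl. NaCl libraries lay above mock libraries in each genotype. Its log2 change was 0.53 ± 0.182 SE in Col-0 (edgeR adjusted p = 0.016) and 0.68 ± 0.188 SE in seu-6 (adjusted p = 0.0029). The Col-0 call was lost without the first mock (0.3), the first NaCl (0.13) or the second NaCl library (0.057), and the seu-6 call without the second mock library (0.091), in edgeR.

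ABF4 and AREB3 rose by similar amounts in both genotypes. ABF4 measured 24.3 and 27.3 CPM in the Col-0 mock, 31.2 and 33.8 CPM in Col-0 with NaCl, 25.6 and 25.1 CPM in the seu-6 mock and 30.9 and 33.6 CPM in seu-6 with NaCl. AREB3 measured 18.9 and 18.2 CPM in the Col-0 mock, 22.9 and 22.8 CPM in Col-0 with NaCl, 15.9 and 19.7 CPM in the seu-6 mock and 22.9 and 22.2 CPM in seu-6 with NaCl. No mock library of either gene reached its NaCl counterparts. ABF4 changed by 0.27 ± 0.078 SE (log2) in Col-0 (edgeR adjusted p = 0.0042) and by 0.26 ± 0.078 SE in seu-6 (adjusted p = 0.0056). AREB3 changed by 0.23 ± 0.093 SE in Col-0 (edgeR adjusted p = 0.043) and by 0.26 ± 0.093 SE in seu-6 (adjusted p = 0.028). In edgeR, the ABF4 call in Col-0 was lost without the first mock (0.21) or the second NaCl library (0.15), and in seu-6 without the second mock (0.054) or the second NaCl library (0.12). The AREB3 call in Col-0 was lost without any 1 of its 4 libraries (0.13 to 0.19), and in seu-6 without the first mock (0.54), the first NaCl (0.11) or the second NaCl library (0.059). DESeq2 did not call AREB3 in Col-0 (adjusted p = 0.077).

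ABF1 was the only member called in the test of the genotype difference in the NaCl response, where 4.59% of all genes were called lower and 2.59% higher in seu-6. It measured 36.5 and 38.7 CPM in the Col-0 mock and 46.0 and 45.3 CPM with NaCl. In seu-6 it measured 44.2 and 44.7 CPM in the mock and 44.6 and 41.5 CPM with NaCl. Col-0 libraries moved up to about the level that seu-6 held in both media. The change was 0.21 ± 0.064 SE (log2) in Col-0 (edgeR adjusted p = 0.006) and -0.13 ± 0.064 SE in seu-6 (adjusted p = 0.11), and the difference was -0.34 ± 0.09 SE (adjusted p = 0.0064). The Col-0 change was not called in edgeR without the first mock (0.17) or the first NaCl library (0.081). The difference was not called in edgeR without the first Col-0 mock (0.12), the first Col-0 NaCl (0.067) or the second seu-6 NaCl library (0.06).

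ABF2 and ABF3 did not rise with NaCl. ABF2 measured 25.1 and 22.3 CPM in the Col-0 mock, 23.2 and 23.4 CPM in Col-0 with NaCl, 20.9 and 20.9 CPM in the seu-6 mock and 19.7 and 16.8 CPM in seu-6 with NaCl. ABF3 measured 56.1 and 56.5 CPM in the Col-0 mock, 53.4 and 52.3 CPM in Col-0 with NaCl, 36.2 and 38.0 CPM in the seu-6 mock and 36.0 and 35.9 CPM in seu-6 with NaCl. The Col-0 groups of ABF2 overlapped, and the other pairs were close but apart. The changes called were -0.28 ± 0.091 SE (log2) for ABF2 in seu-6 (edgeR adjusted p = 0.013) and -0.16 ± 0.06 SE for ABF3 in Col-0 (adjusted p = 0.033). TMM factors were higher with NaCl than in the mock (1.04 against 0.99 in Col-0), so these fitted falls exceed those in CPM. In edgeR, the ABF2 call was lost without either seu-6 mock (0.07 each) or the second seu-6 NaCl library (0.28), and the ABF3 call without either Col-0 mock (0.052 and 0.13) or the second Col-0 NaCl library (0.098). ABI5 stayed between 1.92 and 2.78 CPM in the 8 libraries of this experiment, and its change was 0.19 ± 0.279 SE in Col-0 (edgeR adjusted p = 0.66) and 0.10 ± 0.272 SE in seu-6 (adjusted p = 0.84).

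The mutant held less ABF3 RNA than the wild type in all 4 media, and no seu-6 library reached a Col-0 library of the same medium. It was 1.47-fold lower in the 15 min mock (log2 -0.55 ± 0.062 SE, edgeR adjusted p = 2.3e-12) and 1.44-fold lower with NaCl (log2 -0.52 ± 0.062 SE, adjusted p = 2.0e-11). In the 6 h mock it was 1.55-fold lower (log2 -0.63 ± 0.049 SE, edgeR adjusted p = 8.7e-15). These calls held without any single library. ABF1 went the other way in 3 of the 4 media. It was 1.22-fold higher in the 15 min mock (log2 0.29 ± 0.064 SE, edgeR adjusted p = 1.8e-04) and 1.46-fold higher in the 6 h mock (log2 0.54 ± 0.049 SE, adjusted p = 2.2e-14), while with NaCl its change was -0.05 ± 0.064 SE (adjusted p = 0.59).

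Counted over the members, seu-6 differed from Col-0 in 1 gene higher and 1 lower of 8 in the 15 min mock, beside 14% and 12.9% of the genes tested. With NaCl, 0 were higher and 2 lower, beside 13.6% and 16.1%, the second being ABF2 (log2 -0.32 ± 0.09 SE, edgeR adjusted p = 0.0035, but 0.17 without the second seu-6 NaCl library). In the 6 h mock, 2 of 7 were higher and 2 lower, beside 16% and 11.8%. ABI5 was the second higher gene there (log2 0.43 ± 0.153 SE, edgeR adjusted p = 0.03) and ABF2 the second lower gene (log2 -0.22 ± 0.063 SE, adjusted p = 0.0052). The ABI5 call was lost in DESeq2 (0.088) and in edgeR without the first Col-0 mock (0.22) or the first seu-6 mock library (0.49). The ABF2 call was lost in edgeR without the second Col-0 mock (0.14) or the first seu-6 mock library (0.058). ABI3, a seed transcription factor and partner of ABI5, measured 1.17 and 0.639 CPM in these seu-6 libraries and at most 0.0246 CPM in the Col-0 6 h mock, alongside the seed markers described above.

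DPBF2 was close to the limit of detection everywhere. It held 12 counts in each Col-0 15 min mock library, 1 in each seu-6 15 min mock library, 1 and 12 in Col-0 with NaCl and 0 in both seu-6 NaCl libraries. At 6 h it held 0 counts in both Col-0 mock libraries, 6 and 14 in the seu-6 mock, 5 and 1 in Col-0 with sorbitol and 1 and 0 in seu-6 with sorbitol. The Col-0 NaCl libraries thus spanned the whole range from the seu-6 to the Col-0 mock of that experiment. A count of 0 allows up to 3 counts, which is 0.0718 and 0.0737 CPM in the Col-0 6 h mock libraries, and such limits cover counting error only. In the main fit of the NaCl experiment no contrast of DPBF2 passed edgeR's test, the nearest being seu-6 against Col-0 with NaCl (adjusted p = 0.054). That contrast was called without the first Col-0 NaCl library (0.031), in DESeq2 (0.046) and in edgeR with all 16 libraries in 1 fit (0.046). For the sorbitol experiment, some alternative fits kept DPBF2. It was called lower under sorbitol in seu-6 in 3 of the 6 fits that kept it, among them those with no filter (edgeR adjusted p = 0.034) and with all 16 libraries (0.029). In the 6 h mock it was called higher in seu-6 in 4 of 6 fits, with 0.015 and 0.016 in the same pair of fits in edgeR. The genotype difference in the sorbitol response was called in 4 of 9 fits (0.033 and 0.039), and neither the sorbitol response of Col-0 nor the genotypes under sorbitol was called in any of 7. These calls rest on at most 14 counts a library, and their fitted fold changes are not given because the groups stand at or near 0.

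Levels also differed between the mocks of the experiments, where age, time in medium and experiment cannot be told apart. In Col-0, 2 of 8 members were higher and 2 lower in the 6 h mock than in the 15 min mock, beside 32.1% and 30.5% of 22582 genes tested. In seu-6, 4 were higher and 2 lower, beside 31.1% and 29.2%. These fitted changes include TMM factors of 0.918 and 0.919 in the seu-6 15 min mocks against 1.07 in each 6 h mock. The Col-0 factors were 0.9528 and 0.9505 against 1.09 in each. ABF2 in seu-6 was called lower (log2 -0.17 ± 0.074 SE, edgeR adjusted p = 0.048), though its CPM were higher at 6 h. It measured 20.86 and 20.93 CPM at 15 min against 21.5 and 21.96 CPM at 6 h. ABF3 was lower at 6 h in both genotypes, by log2 -0.40 ± 0.047 SE in Col-0 (edgeR adjusted p = 4.2e-11) and -0.47 ± 0.052 SE in seu-6 (adjusted p = 2.9e-12). ABI5 was higher in both, by 0.69 ± 0.197 SE (edgeR adjusted p = 0.0018) and 0.76 ± 0.188 SE (adjusted p = 4.0e-04). DPBF2 was lower at 6 h in Col-0 (edgeR adjusted p = 0.0027), by 3.91-fold with 3 reads a library counted where none were found. That ratio leaves out error in the 12 counts of each 15 min mock library and spread between replicates. ABF1 was called higher in seu-6 alone (log2 0.37 ± 0.053 SE, edgeR adjusted p = 1.2e-08, against 0.11 ± 0.055 SE and 0.064 in Col-0), and the difference between the genotypes was not tested. With any 1 of its mock libraries left out, 4 or 5 members were called in seu-6. In edgeR, ABF4 was lost there without either 15 min mock (0.088 and 0.15) or the second 6 h mock library (0.061), ABF2 without either 6 h mock (0.18 and 0.089), and EEL without the second 15 min mock (0.18) or the first 6 h mock library (0.052). In Col-0 the AREB3 call was lost in DESeq2 (0.067), in edgeR with the scaling of DESeq2 (0.063) and in edgeR without either 15 min mock (0.1 and 0.2) or the second 6 h mock library (0.25).

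Other group A genes were measured for context. Of 5 listed, bZIP15 had no count in any library and 4 were tested. GBF4 rose under sorbitol by log2 0.48 ± 0.12 SE in Col-0 (edgeR adjusted p = 4.6e-04) and 0.51 ± 0.12 SE in seu-6 (adjusted p = 2.1e-04). FD, a partner of the flowering signal FT at the shoot apex, fell by 0.86 ± 0.226 SE in Col-0 (edgeR adjusted p = 7.7e-04) and by 1.15 ± 0.238 SE in seu-6 (adjusted p = 3.4e-05). Among all genes tested, 31.3% rose and 31.2% fell under sorbitol in Col-0, and 28.9% and 29% in seu-6. bZIP13 rose by 0.19 ± 0.085 SE in Col-0 (edgeR adjusted p = 0.043) and changed by -0.02 ± 0.086 SE in seu-6 (0.86), and FDP was called in neither. None of the 4 was called for a genotype difference in the sorbitol response, beside 5.62% of all genes higher and 7.38% lower. With NaCl, bZIP13 rose by 0.66 ± 0.085 SE in Col-0 (edgeR adjusted p = 2.5e-10) and by 0.32 ± 0.086 SE in seu-6 (adjusted p = 0.0018). Neither bZIP13 nor any other of the 4 was called for a genotype difference in the NaCl response, beside 2.59% of all genes higher and 4.59% lower.

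Kinases that phosphorylate these factors responded unevenly to sorbitol. Of 8 listed, CIPK11 was listed at 0 in every library, and of the 7 tested 5 rose and 1 fell in Col-0, while 4 rose and 1 fell in seu-6. Of all genes tested, 31.3% rose and 31.2% fell in Col-0 and 28.9% and 29% in seu-6. OST1, the SnRK2 kinase that closes stomata, rose by log2 1.23 ± 0.072 SE in Col-0 (edgeR adjusted p = 4.4e-23) and by 0.83 ± 0.073 SE in seu-6 (adjusted p = 2.3e-15). SNRK2.3, a SnRK2 kinase active in seeds and seedlings, rose by 0.87 ± 0.074 SE in Col-0 (edgeR adjusted p = 3.4e-16) and by 0.31 ± 0.074 SE in seu-6 (adjusted p = 2.0e-04). CPK32, a calcium-dependent kinase that phosphorylates ABF4, rose by 0.79 ± 0.054 SE (edgeR adjusted p = 4.8e-20) and by 0.56 ± 0.055 SE (adjusted p = 9.3e-14). The rise was smaller in seu-6 for 4 of the 7, namely these 3 and CIPK26, and larger for 0, beside 7.38% and 5.62% of all genes. With NaCl, 1 kinase rose and 2 fell in Col-0, beside 15.8% and 17.6% of all genes, and 0 rose and 4 fell in seu-6, beside 12% and 17.9%.

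Proteins that restrain the factors include the AFP proteins, which bind ABI5 and repress its output, and ubiquitin ligase components such as KEG and DWA1, which target the factors for degradation. Under sorbitol, 3 of 12 such genes rose and 5 fell in Col-0, and 3 rose and 4 fell in seu-6. These shares stand beside 31.3% and 31.2% of all genes in Col-0 and 28.9% and 29% in seu-6. The 3 that rose in each were AFP genes. AFP1 rose 15.7-fold in Col-0 (log2 3.98 ± 0.072 SE, edgeR adjusted p = 5.1e-48) and 8.66-fold in seu-6 (log2 3.11 ± 0.079 SE, adjusted p = 2.1e-40). AFP3 rose 9.02-fold in Col-0 (log2 3.17 ± 0.074 SE, edgeR adjusted p = 7.3e-41) and 5.95-fold in seu-6 (log2 2.57 ± 0.076 SE, adjusted p = 1.3e-35). TMAC2, the fourth AFP gene, fell by log2 0.38 ± 0.104 SE in Col-0 (edgeR adjusted p = 0.0011) and by 1.27 ± 0.11 SE in seu-6 (adjusted p = 1.0e-15). In the test of the genotype difference, AFP1, AFP3 and TMAC2 were lower in seu-6 and none of the 12 was higher, beside 7.38% and 5.62% of all genes. KEG changed by -0.03 ± 0.046 SE in Col-0 (edgeR adjusted p = 0.63). MYB96, listed here among partners and activators, rose by 2.35 ± 0.072 SE in Col-0 (edgeR adjusted p = 2.0e-36) and by 1.72 ± 0.079 SE in seu-6 (adjusted p = 1.6e-27).

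With NaCl, 2 of the 12 restraining genes rose and 2 fell in Col-0, and 2 rose and 3 fell in seu-6. Over all genes, 15.8% rose and 17.6% fell in Col-0, and 12% and 17.9% in seu-6. TMAC2 fell by log2 0.97 ± 0.073 SE in Col-0 (edgeR adjusted p = 1.6e-20) and by 0.97 ± 0.074 SE in seu-6 (adjusted p = 3.7e-20). RAV1, which represses ABI5 transcription, fell by 0.65 ± 0.037 SE in Col-0 (edgeR adjusted p = 2.8e-27) and by 0.32 ± 0.037 SE in seu-6 (adjusted p = 7.6e-12), and the difference of 0.32 ± 0.053 SE was called (adjusted p = 2.2e-06).

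A list of 20 genes known as direct or ABRE-driven targets of these factors was followed as well. It was chosen with earlier results of these data known. Under sorbitol, 18 rose and 2 fell in Col-0 with a median log2 change of 3.82, and 19 rose and 1 fell in seu-6 with a median of 3.26, or 3.09 with genes at 0 in the mock set to their lower bound. Over all genes, 31.3% rose and 31.2% fell in Col-0, and 28.9% and 29% in seu-6. RD29B, a desiccation-response gene with ABREs in its promoter, rose 636-fold in Col-0 (log2 9.31 ± 0.087 SE, edgeR adjusted p = 3.6e-63) and 270-fold in seu-6 (log2 8.08 ± 0.082 SE, adjusted p = 6.2e-61). Its mock libraries held only 13 and 27 counts in Col-0 and 31 and 36 in seu-6. Counting error alone is larger than these SE. RD29A rose 13.2-fold in Col-0 (log2 3.72 ± 0.033 SE, edgeR adjusted p = 3.4e-66) and 11.2-fold in seu-6 (log2 3.49 ± 0.032 SE, adjusted p = 9.2e-65). RD20, which encodes a caleosin, rose 56.7-fold in Col-0 (log2 5.82 ± 0.055 SE, edgeR adjusted p = 1.3e-64) and 39.0-fold in seu-6 (log2 5.29 ± 0.059 SE, adjusted p = 2.3e-60). The SE of RD20 are also too small for its mock counts, 285 and 299 in Col-0 and 171 and 211 in seu-6. COR15A, which encodes a chloroplast protectant, rose 15.5-fold (edgeR adjusted p = 6.2e-64) and 9.01-fold (adjusted p = 2.2e-59). TSPO, a membrane protein degraded after stress, had no counts in the Col-0 6 h mock and rose at least 553-fold there, counting 3 reads a library in the mock.

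The response was lower in seu-6 for 12 of the 20 targets and higher for 1, ADH1, which encodes alcohol dehydrogenase, beside 7.38% and 5.62% of all genes. The difference was -0.78 ± 0.051 SE (log2) for COR15A (edgeR adjusted p = 3.6e-19), -0.68 ± 0.047 SE for KIN2 (adjusted p = 9.8e-18) and -0.44 ± 0.05 SE for the phosphatase gene ABI1 (adjusted p = 3.3e-10). ADH1 fell by 0.37 ± 0.035 SE in Col-0 (edgeR adjusted p = 1.6e-14) and rose by 0.31 ± 0.034 SE in seu-6 (adjusted p = 3.5e-12). Levels under sorbitol were lower in seu-6 for 14 of the 20 and higher for 3, with a median log2 difference of -0.46 beside -0.000459 over all genes tested, of which 17.4% were lower and 17.5% higher. In the 6 h mock the split was 10 higher and 5 lower in seu-6, beside 16% and 11.8% of all genes.

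With NaCl for 15 min, 12 of 18 targets tested rose and 0 fell in Col-0, while 4 rose and 3 fell in seu-6, beside 15.8% and 17.6% of all genes in Col-0 and 12% and 17.9% in seu-6. DREB2A, a transcription factor of the dehydration response, rose 2.26-fold in Col-0 (log2 1.18 ± 0.045 SE, edgeR adjusted p = 6.5e-39) and 4.78-fold in seu-6 (log2 2.26 ± 0.048 SE, adjusted p = 2.5e-57). RD29A rose 1.57-fold in Col-0 (log2 0.65 ± 0.029 SE, edgeR adjusted p = 2.1e-34) and changed by 0.04 ± 0.03 SE in seu-6 (adjusted p = 0.38). RD20 rose by 0.89 ± 0.17 SE in Col-0 (edgeR adjusted p = 1.1e-05) and changed by -0.21 ± 0.179 SE in seu-6 (adjusted p = 0.42). In the test of the genotype difference in the NaCl response, 7 of the 18 were lower in seu-6 and 1, DREB2A, was higher, beside 4.59% and 2.59% of all genes.

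**Figure D5:**
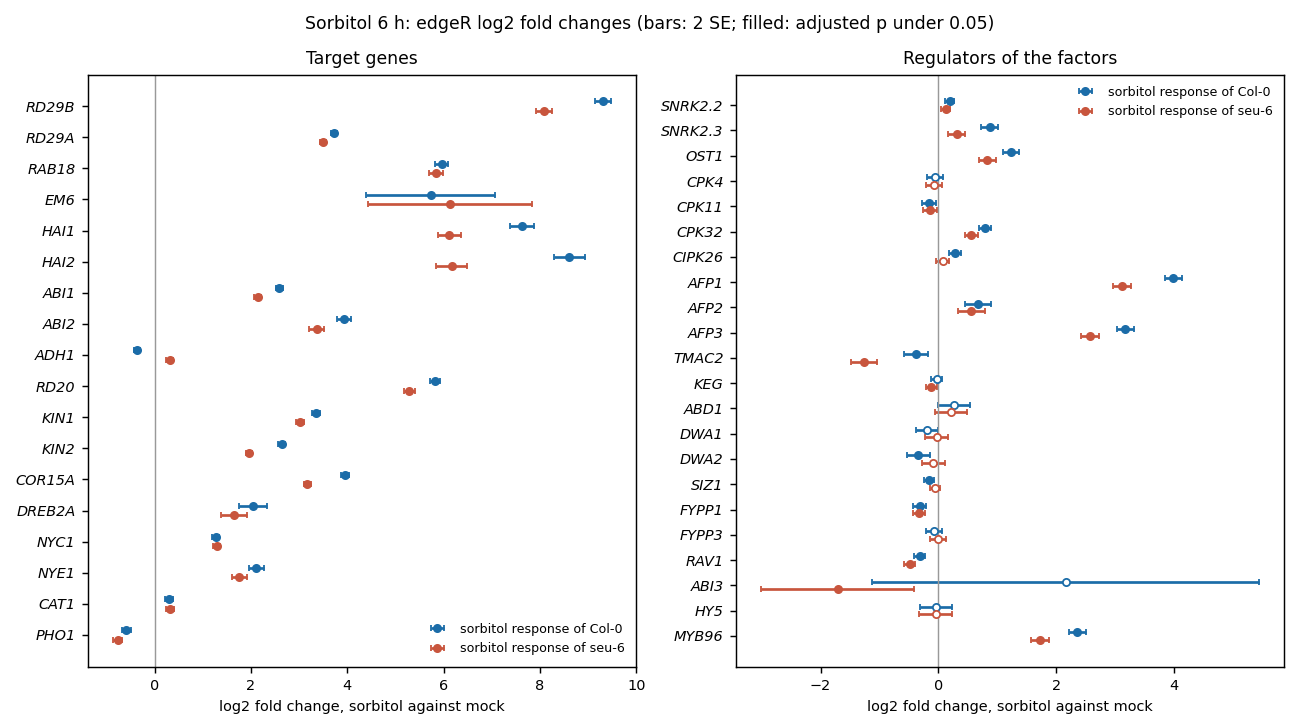
Sorbitol responses of target genes (left) and of kinases, restraining proteins and partners (right). Points are edgeR log2 changes, bars span 2 standard errors on either side, blue is Col-0, red is seu-6, and filled points have an adjusted p under 0.05. Bars are too short for large rises from few mock counts, such as that of RD29B. TSPO and EM1 are left out because their Col-0 mock libraries held no counts. RD29B reaches 9.31 in Col-0 and 8.08 in seu-6, and AFP1 reaches 3.98 and 3.11.

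The members' profiles were last compared with those of other genes, by Pearson correlation of log2 CPM over the 8 group means, among the 16107 genes whose average log2 CPM reached 2. With 8 points that share their libraries, these values only describe the profiles. Among the members, ABF2 and ABF3 were the most alike (r = 0.986). Most like ABF3 were AT1G67300 (r = 0.9951) and the potassium channel gene KT2/3 (0.9945), which ranged 2.57-fold and 7.71-fold over the groups against 16.1-fold for ABF3. ABF2 was nearest to AT5G50100 (0.9973) and AT1G69252 (0.9944). ABI5 was nearest to CYP89A9, a cytochrome P450 gene (0.9954), and AT4G33540 (0.9949). ABF1 was nearest to FUT12, a fucosyltransferase gene 5972 bases from it on chromosome 1 (0.9969), which ranged 1.57-fold against 3.17-fold for ABF1. ABF4 was nearest to AT4G11800 (0.9927), AREB3 to the NAC factor gene NTL9 (0.9868) and EEL to the zinc transporter gene ZIP1 (0.9561). For DPBF2 the best match reached only 0.8409.

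Smaller overlaps of exons also touch other members. In the TAIR10.1 annotation, ABF1 shares 123 of 1720 exon bases with AT1G49730 and 65 with the antisense non-coding locus AT1G07587, AREB3 shares 113 of 1934 with AT3G56840, ABF3 shares 24 of 2444 with AT4G34020, and EEL shares 23 of 1513 with AT2G41060. Some of these partners held many counts. AT2G41060, on the same strand as EEL, held 1136 to 2688 counts a library, against 127 to 360 for EEL. AT1G49730 held 592 to 2025, AT4G34020 821 to 1641, AT3G56840 384 to 656 and AT1G07587 14 to 94. Reads over the shared bases could be counted for either gene or left out as ambiguous, and their part in the values was not tested. ABF2, ABI5 and DPBF2 share none.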

How the data were processed

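The values analysed are the authors' raw read counts per locus, deposited for each of 16 libraries. Reads were aligned with HISAT2 2.2.1 and counted with HTSeq 0.13.5 on TAIR10, per the submitters' processing notes; the strand setting is not given in the sources used here. The 5 summary lines of each table (8.78% to 12.74% of its total) were left out. Counts were scaled to CPM on gene totals for description. Tests used edgeR 4.0.16 in R 4.3.3 (filterByExpr, TMM, robust quasi-likelihood F test, 1 mean per group, Benjamini-Hochberg over all genes tested, threshold 0.05). Each experiment was fitted on its own 8 libraries, and the mocks were compared in a fit of all 16. Standard errors are the log2 change over the square root of F, which comes out too small for very large changes from few counts. The scripts were tested on simulated counts. Results were recomputed with DESeq2 1.42.0, with edgeR on DESeq2's scaling, without the low-count filter, with a replicate block, with other sets of libraries in the fit, and without each library in turn. Genes named beyond the 8 are up to 4 per list and comparison with the smallest adjusted p and those whose role is taken up. Members, lists and rule were chosen with earlier results of these data known. Names, exon lengths and promoter sequence come from RefSeq TAIR10.1, where 32548 of 32833 loci matched. Protein sequences were not used here.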

Additional observations from a re-analysis of the deposited data

Results flagged for a closer look

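Several responses differed between Col-0 and seu-6 by a test of the difference itself (edgeR's quasi-likelihood test, adjusted over all genes tested, 2 libraries a group). Values are log2 differences, response of seu-6 minus response of Col-0. For sorbitol, among the factors they were -0.74 for ABF2 (adjusted p = 1.1e-10), -0.77 for ABI5 (0.0046), -0.29 for ABF4 (0.022) and -0.28 for ABF3 (8.7e-04). Both seu-6 sorbitol libraries lay under both Col-0 libraries for these 4 genes. For ABF2 and ABF3 the same held in the 6 h mock, so a lower level under sorbitol alone does not show a smaller response. The ABF3 and ABF4 differences were lost in DESeq2 (DESeq2 adjusted p = 0.089 and 0.098). Among the kinases the differences were -0.56 for SNRK2.3 (edgeR adjusted p = 5.2e-05), -0.40 for OST1 (0.0043), -0.23 for CPK32 (0.037) and -0.21 for CIPK26 (0.048). Among restraining proteins and activators they were -0.86 for AFP1 (edgeR adjusted p = 4.2e-08), -0.89 for TMAC2 (9.3e-06), -0.60 for AFP3 (3.8e-05) and -0.63 for MYB96 (1.0e-05). Among targets they were -0.78 for COR15A (edgeR adjusted p = 3.6e-19), -0.68 for KIN2 (9.8e-18), -0.44 for ABI1 (3.3e-10) and 0.68 for ADH1 (1.5e-17).

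For NaCl, the difference was -0.34 for ABF1 (edgeR adjusted p = 0.0064), -0.16 for the kinase gene SNRK2.2 (0.015) and 0.32 for RAV1 (2.2e-06). Among targets it was 1.08 for DREB2A (edgeR adjusted p = 1.4e-24), -0.62 for RD29A (7.4e-22), -0.56 for KIN1 (4.2e-04) and -1.10 for RD20 (8.9e-04). DREB2A began lower in seu-6 (log2 -0.81 in the 15 min mock) and ended higher (0.27 with NaCl). All sorbitol differences use the seu-6 6 h mock libraries, in which the embryo and seed markers summed to 145.8 and 146.1 CPM.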

How the results depend on the processing

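The 91 fitted values of the 8 genes were recomputed under the alternatives, giving 878 values. No value called in either fit changed sign. Of the 878, 784 kept their side of the threshold, 86 lost the call and 8 gained one. Values called in neither fit could change sign. The AREB3 difference between genotypes in the 15 min mock ran from log2 -0.17 to 0.14 with single libraries left out. Of the 6 members that differed between genotypes under sorbitol, 3 were called with all 16 libraries in 1 fit and 3 in DESeq2. Of the 4 that differed in their sorbitol response, 2 were called in DESeq2. With single libraries left out, the calls ranged from 0 to 3 for the NaCl response of Col-0 and from 1 to 3 for that of seu-6. They ranged from 1 to 3 for the genotypes with NaCl, from 0 to 1 for the genotype difference in the NaCl response and from 3 to 4 for the genotypes under sorbitol. The cause was not tested, but each such fit has 1 library fewer. Replicate numbers are shared across groups, but same-numbered libraries did not deviate together (r from -0.018 to 0.010 with NaCl and from -0.057 to 0.066 with sorbitol). With the replicate number as a block, 4 of the 6 genotype differences under sorbitol were called, ABF4 (edgeR adjusted p = 0.051) and EEL (0.052) being lost, and no other call on a member changed. Depth limits DPBF2 most, with at most 14 counts a library. ABI5 held 82 to 113 counts a library in the NaCl experiment. The SE of its NaCl response was 0.279 in Col-0 and 0.272 in seu-6, against 0.064 in each for ABF1. A small change of ABI5 could therefore go uncalled there.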
